A study of Mus musculus with 3 samples.

Results

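The Myc, Max and Mxd network was examined in 5TGM1.BRE cells, a mouse myeloma line that resists bortezomib and engrafts in mice. Its members were taken by symbol from the deposited count tables: Myc and its paralogs Mycn and Mycl, the common partner Max, the antagonists Mxd1, Mxd3, Mxd4, Mxi1 and Mnt, and the Max-like gene Mlx. All 10 were found among the 24467 genes listed, and 8 of them passed the filter on low counts. The 5TGM1 line stems from a myeloma that arose spontaneously in C57BL/KaLwRij mice. The tissue is labelled as bone marrow, and the culture protocol given for all samples has the 5TGM1.BRE cells kept in 10 nM bortezomib, an inhibitor of the proteasome. The cell type entry of replicate 1, unlike those of replicates 2 and 3, does not mention culture with the drug, and replicate 1 is placed in the group by its title. Before extraction of polyadenylated RNA from 10000000 cells per sample, the drug was withheld for 72 h or longer. The 3 libraries, called replicates 1 to 3 after their titles, all came from this 1 line, so no level is set against sensitive cells, which were not analysed here. Whether the replicates were separate cultures is not stated, and the spread between them may be technical.

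MYC proteins bind DNA as heterodimers with MAX, at a palindromic site called the E-box, and raise the transcription of genes for ribosome production, nucleotide synthesis and cell division. The MXD proteins, MXI1 and MNT compete for MAX and bring the SIN3 corepressor with its histone deacetylases to the same sites. MLX resembles MAX, pairs with the glucose-sensing Mondo proteins, and can also pair with MXD1, MXD4 and MNT. Raised MYC activity is a common feature of plasma cell tumours, in the mouse often through rearrangements that place Myc next to immunoglobulin genes.

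Promoter windows of the network genes themselves were searched for the E-box. RefSeq promoter windows on GRCm38.p6, from 250 bases before to 50 bases after an annotated start, were held for 9 of the 10 genes, and no window is described for Myc. The motif CACGTG, which reads the same on both strands, was found in the windows of Max, Mlx, Mnt and Mxd4, that is in 4 of 9 genes. It occurred in 7.15% of all 32851 windows of this length, and in 10.2% of the 10940 windows of genes that passed the low-count filter. These shares are per window, whereas 4 of 9 is per gene. Mxi1, which has windows at 3 starts, had no match in any, and neither did Mxd1, Mxd3, Mycn or Mycl. The variant CACGCG, searched on both strands and sharing no match with CACGTG, was found in Mycl alone among the 9 genes, in 9.27% of all windows and in 17.4% of those of genes that passed the filter. The 30 bases around each CACGTG, with the motif in capitals and in the direction of transcription, show that the flanks differ between the 4 genes. They are those of the reference mouse and not read from these cells, and a match is no evidence of binding.
Max: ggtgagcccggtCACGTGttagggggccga
Mlx: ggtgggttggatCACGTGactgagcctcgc
Mnt: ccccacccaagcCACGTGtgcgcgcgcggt
Mxd4: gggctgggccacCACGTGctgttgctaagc
The Max window is chr12:76962234-76962263 on the minus strand, and its motif begins 3 bases before the start and runs across it. The Mlx window is chr11:101087238-101087267 on the plus strand, with the motif 40 bases before the start. The Mnt window is chr11:74830789-74830818 on the plus strand, with the motif 123 bases before the start. The Mxd4 window is chr5:34187912-34187941 on the minus strand, with the motif 219 bases before the start.

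Depth was 62303493, 45705994 and 59402218 gene counts in replicates 1, 2 and 3. The labelled cell type, myeloma, was checked with 9 plasma cell markers, of which 8 reached 1 CPM (counts scaled to a library sum of 1000000) in every library, at a summed 4504 to 4612 CPM. Of 9 B cell markers, 2 reached that level (Cd79b and Ms4a1), with a summed 90.6 to 101 CPM. Nearly all of that sum was Cd79b, a subunit of the B cell receptor, at a mean of 92.0 CPM, while Bcl6 and Cr2 were at 0. The corresponding numbers were 0 of 9 for T and NK cells, 1 of 12 for myeloid and dendritic cells, 1 of 7 for erythroid cells and megakaryocytes, 1 of 8 for stroma and endothelium and 1 of 6 for stem and mast cells. Their sums lay at 0.219 to 0.481, 3.48 to 3.84, 15.2 to 17.6, 6.13 to 6.82 and 2.71 to 3.15 CPM. The megakaryocyte integrin gene Itga2b, at a mean of 16.2 CPM, made up most of the erythroid and megakaryocyte sum. Cd3e, S100a8, S100a9, Col1a2 and Kit had no count. Replicate 3 stood apart from the other libraries. The chi-square statistic per degree of freedom, over genes with enough counts, was 4.0 between replicates 1 and 2, but 65.1 and 44.4 between these and replicate 3. Short genes were higher and long genes lower in replicate 3. The median log2 fold change against the other 2 libraries was 0.30 in the shortest of 20 equal bins of genes by length and -0.27 in the longest. Differences of the network genes in replicate 3, and the numbers called in each list, are therefore given also with this length trend removed. Those of Prelid1 and Psmc3ip, whose exons overlap members, are given only without that correction.

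Levels of different genes were compared per length, as TPM (transcript levels, from counts per kilobase of the union of annotated exons, scaled to a sum of 1000000 in each library). Apart from length, the factor between CPM and TPM is shared by all genes of a library, and it was lowest in replicate 3. TPM in replicate 3 are therefore low beside those of replicates 1 and 2, for every gene alike. Myc was by far the highest member. Its level was 553, 535 and 516 TPM in replicates 1, 2 and 3, with a mean of 535 ± 18.4 TPM (SD, n = 3), on 28987, 20802 and 27933 counts. It stood at percentile 98.3 of the 16120 genes with a count and a length. The 3 libraries lay close together, and the coefficient of variation of its CPM was 1.66%. The median over the 11308 genes tested was 7.95%, but those genes were not matched to Myc in level or length. The gene (chromosome 15, 61985391 to 61990374, plus strand, GRCm38) is overlapped by no other annotated gene. The genes whose TPM came closest to it in all 3 libraries were Rpn1, Nap1l1 and Ubr3. The largest difference in log2 TPM from Myc in any library was 0.03 for Rpn1, 0.04 for Nap1l1 and 0.06 for Ubr3, among 13179 genes compared.

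The other Myc paralogs were at or near 0. Mycn, the paralog best known from neuroblastoma, had 0 counts in each of the 3 libraries, which allows up to 0.0179 CPM over all of them. Set against that limit of 3 counts, Myc was at least 31419-fold higher per kilobase than Mycn. Mycl, first found in lung cancer, had a single count, in replicate 1, and none in replicates 2 and 3. The ratio of Myc to Mycl over the 3 libraries was 115510 per kilobase, with an exact 95% Poisson interval of 20732 to 4562410 that covers counting error only. In every library the counts of the 3 paralogs were thus almost all those of Myc.

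Max, which encodes the obligate partner of MYC and a partner of its antagonists, had a transcript level well below that of Myc. It was at 85.1, 83.6 and 85.5 TPM, a mean of 84.8 ± 0.996 TPM (SD, n = 3). Per kilobase Myc exceeded Max 6.30-fold, with log2 ratios of 2.70, 2.68 and 2.59 and a mean of 2.66 ± 0.0559 (SD, n = 3). The excess was found in 3 of 3 libraries. It was 4.76-fold without a length correction and 3.95-fold when the longest annotated transcript served as length. Max (chromosome 12, 76937269 to 76962201, minus strand) has 7 annotated transcripts, and its union exon length of 3598 bases is well above the 1942 bases of the longest of them. Which of the transcripts these cells make is not shown by counts per gene.

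Mlx was at a level like that of Max. It was at 89.9, 86.4 and 86.4 TPM, a mean of 87.6 ± 2.0 TPM (SD, n = 3). The gene lies on chromosome 11 (101087277 to 101092207, plus strand). The log2 ratio of Mlx to Max was 0.0467 ± 0.0319 (SD, n = 3). It was above 0 in 3 of 3 libraries per kilobase of union length, but turned to -0.82 with the longest transcript and to -0.80 without lengths. Which of the pair is higher therefore cannot be said from these files. Mlxip, which encodes the Mondo protein MondoA, was at 20.4, 20.6 and 14.99 TPM, and Mlx exceeded it 4.74-fold per kilobase. That excess held in 3 of 3 libraries but shrank to 1.14-fold without lengths. Mlxipl, the gene of the related ChREBP of liver and fat, had 0, 4 and 2 counts. Mga, whose large protein also pairs with MAX, was at 18.004, 18.7 and 13.8 TPM, and Max exceeded it 5.08-fold per kilobase, or 1.19-fold without lengths. For both Mlxip and Mga replicate 3 was the low library. By edgeR the log2 fold change there was -0.31 for Mlxip (adjusted p = 9.8e-09) and -0.27 for Mga (adjusted p = 5.11e-10), or -0.15 (adjusted p = 0.0246) and -0.01 (adjusted p = 0.877) with the length trend removed.

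**Figure D1:**
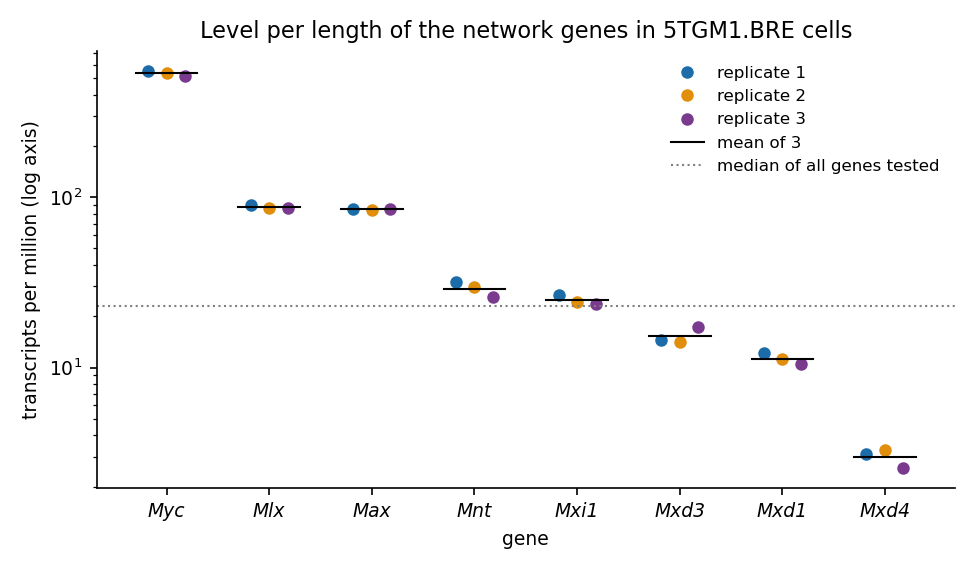
TPM (log axis) of the 8 network genes that passed the low-count filter, by library (points) with the mean of 3 (bars); the dotted line is the median of all genes tested. Myc lies between 516 and 553 TPM, Mlx and Max between 83.6 and 89.9, and the 5 antagonists between 2.57 and 32.0.

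All 5 antagonists were transcribed, each below Max and at levels that differed among them. Mnt, the broadly expressed antagonist, was at 32.0, 29.5 and 25.8 TPM, a mean of 29.1 ± 3.11 TPM (SD, n = 3). Mxi1, also called Mxd2, was at 26.8, 24.4 and 23.5 TPM, a mean of 24.9 ± 1.72 TPM (SD, n = 3). Mnt was above Mxi1 in each library, but their ranges overlapped, and Mxi1 was the higher of them when length was that of the longest transcript, at 24.6 against 21.4 TPM. These 2 genes lay close to the median of the genes tested, 22.9 TPM.

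The remaining Mxd genes were below that median. Mxd3, whose transcript is known to rise in S phase, was at 14.5, 14.2 and 17.2 TPM, a mean of 15.3 ± 1.66 TPM (SD, n = 3). Replicate 3 was the high library for it, and replicates 1 and 2 were nearly alike. Mxd1, which accompanies terminal differentiation in many tissues, was at 12.2, 11.2 and 10.5 TPM, a mean of 11.3 ± 0.844 TPM (SD, n = 3). Mxd4 was the lowest expressed member at 3.12, 3.30 and 2.57 TPM, a mean of 2.9998 ± 0.379 TPM (SD, n = 3), with replicate 3 lowest. Of the 7 neighbouring pairs in the order Myc, Mlx, Max, Mnt, Mxi1, Mxd3, Mxd1 and Mxd4, 6 had ranges over the libraries that did not overlap, the exception being Mnt and Mxi1. Without lengths the order changed to Myc, Max, Mlx, Mxi1, Mnt, Mxd1, Mxd3 and Mxd4, so that Mxd1 stood above Mxd3.

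Mxd4 lies on chromosome 5 at 34173883 to 34187720, Mxd3 on chromosome 13 at 55325168 to 55329823 and Mxd1 on chromosome 6 at 86647042 to 86669161, all on the minus strand. Mxi1, on chromosome 19 at 53310518 to 53375810, and Mnt, on chromosome 11 at 74830920 to 74845725, are on the plus strand. Some exons of these genes lie opposite those of other genes, and the strand setting of the counting is not given in the sources used here. An antisense RNA covers 6.06% of the exon bases of Mxd4, Gm10197 covers 2.84% of those of Mxi1, and Prelid1 4.43% of those of Mxd3. For Mlx the share is larger, 19.26%, with Psmc3ip on the opposite strand.

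The antagonists together were about as abundant as Max and far below Myc. Their summed level was 88.6, 82.6 and 79.6 TPM, a mean of 83.6 ± 4.57 TPM (SD, n = 3). Relative to Max, the log2 ratio of this sum was 0.06, -0.0179 and -0.10, with 1 of 3 libraries above 0, and the mean of -0.0215 ± 0.0804 (SD, n = 3) was smaller than the spread between libraries. Here too the length matters: the ratio was -0.56 with the longest transcript and 0.55 without lengths. Myc exceeded the summed antagonists 6.40-fold per kilobase, with log2 ratios of 2.64, 2.70 and 2.70 and a mean of 2.68 ± 0.0311 (SD, n = 3). This excess was 5.84-fold with the longest transcript and 3.26-fold without lengths. Of the summed TPM of the 8 expressed members, Myc made up 67.6% ± 0.352, Mlx 11.1% ± 0.153 and Max 10.7% ± 0.370 (SD, n = 3 for each).

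Among the antagonists, Mnt alone was 1.88-fold below the sum of the 4 Mxd-family genes per kilobase. Its log2 ratios to that sum were -0.82, -0.85 and -1.06, lowest in replicate 3. Mxd3 exceeded its relative Mxd4 5.11-fold per kilobase, with log2 ratios of 2.21, 2.11 and 2.74, but 1.43-fold without lengths. Mxi1 exceeded Mxd1 2.20-fold, or 2.13-fold without lengths. This ratio was the steadiest of all 10, with an SD of 0.0209 on the log2 scale. Mxi1 and Mxd1 are alike in length (6.82 and 7.07 kb), whereas Mxd3 and Mxd4 are not (2.37 and 8.48 kb). Ratios between genes of unlike length carry the length trend of replicate 3, and none was corrected for it. Mxd4 was 3.78-fold below Mxd1, and 3.15-fold without lengths. For the ratios named, a two-sided exact permutation test by sign flips gave p = 0.25, or 0.278 when adjusted (Benjamini-Hochberg) for the 10 ratios, and p cannot go lower with 3 libraries. The summed antagonists over Max had p = 0.75 in this exact test.

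**Figure D2:**
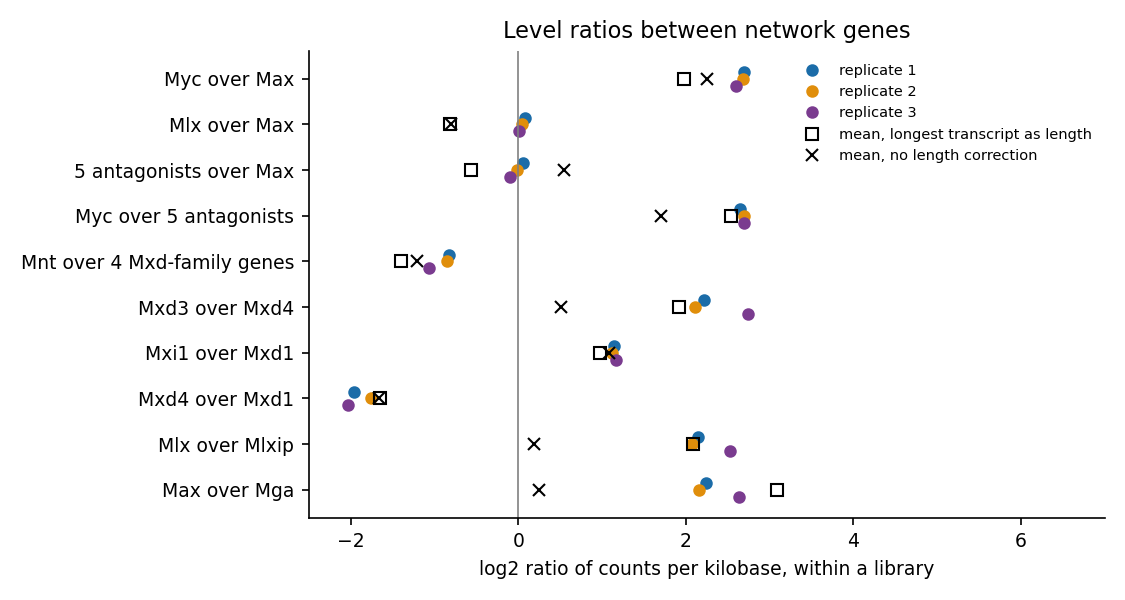
Log2 ratios of counts per kilobase between network genes (x axis) for each ratio (y axis), by library as points; squares and crosses are means with the longest transcript as length and with no length. Myc exceeded Max and the summed antagonists in every library, whereas Mlx over Max and the antagonists over Max change sign with the length used.

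Each library was then set against the other 2 by edgeR's quasi-likelihood test, fitted over 11308 genes with Benjamini-Hochberg adjustment over all of them. Its standard errors rest on the spread between the 2 remaining libraries, with 1 residual degree of freedom, drawn towards a value shared over all genes. When replicate 1 or 2 is the single library, that spread includes the outlying replicate 3. The SE of Max was then 0.19 or 0.21, against 0.0403 with replicate 3 as the single library. A gene not called for replicate 1 or 2 may therefore still differ there. For replicates 1 and 2 no network gene passed, either by edgeR or by DESeq2, and 0 of 8 had an unadjusted p under 0.05 by either tool. Of all genes, 0.0796% were called in either direction for replicate 1 and 0.0531% for replicate 2. For replicate 3, 3 of 8 network genes were higher and none was lower, while 24.8% of all genes were called higher and 26.8% lower. The members' median log2 fold change was 0.0368, against 0.0054 over all genes. With 8 members tested, such shares do not set the members apart from all genes. With the length trend removed, 3 of 8 network genes were again higher and none lower, now Max, Mxd3 and Mxi1, against 16.3% of all genes higher and 16% lower.

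Mxd3 was the member that differed most. It was at 10.6, 10.5 and 13.7 CPM in replicates 1, 2 and 3, on 661, 482 and 812 counts, so that replicate 3 lay above both other libraries. The log2 fold change was 0.40 ± 0.0829 (SE, adjusted p = 6.92e-06), and 0.26 with the length trend removed (adjusted p = 0.00986). Prelid1, its neighbour on the opposite strand, was itself 0.17 higher in replicate 3 (log2, adjusted p = 0.000112), and its part in the Mxd3 difference was not tested. The coefficient of variation of Mxd3, 15.4%, exceeded that of 84.3% of genes tested.

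Max was at 94.9, 94.2 and 103 CPM, again with replicate 3 the highest. In TPM it was at 85.1, 83.6 and 85.5, with replicates 1 and 3 nearly alike. Its log2 fold change was 0.16 ± 0.0403 (SE, adjusted p = 0.000352), and 0.13 with the length trend removed (adjusted p = 0.0141). By DESeq2 the adjusted p was 0.0583, so the call rests on the tool. Mlx was at 55.6, 54.1 and 57.9 CPM, and its log2 fold change of 0.11 ± 0.0446 (SE) passed with an adjusted p of 0.0334. It turned to -0.0636 with the length trend removed (adjusted p = 0.299), and the call was also lost by DESeq2 (0.10, adjusted p = 0.329), without the low-count filter (0.11, adjusted p = 0.0544) and with library totals as the only scaling (0.08, adjusted p = 0.153). Without replicate 2, the Mlx difference between replicates 3 and 1 was 0.0575 in log2 CPM, with no test. Psmc3ip, whose exons overlap those of Mlx, was 0.28 higher in replicate 3 on the log2 scale (adjusted p = 4.52e-06). Its part in the counts of Mlx was not tested.

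Myc, the most abundant member, was at 465, 455 and 470.2 CPM. Myc was thus highest in replicate 3 in CPM but lowest there in TPM, at 553, 535 and 516. That shift is the factor between CPM and TPM, which all genes of a library share. Its log2 fold change in replicate 3 was 0.06 ± 0.0430 (SE, adjusted p = 0.23), and -0.0421 with the length trend removed. Mnt was at 45.8, 42.8 and 40.0 CPM, with a log2 fold change of -0.12 ± 0.0570 (SE), and -0.0888 with the length trend removed. It passed in neither, nor with RLE scaling, by DESeq2 or without the low-count filter. Only with library totals as the only scaling was Mnt called lower (-0.15). Mxd4 was at 8.20, 8.77 and 7.32 CPM, at -0.18 ± 0.0988 (SE, adjusted p = 0.121) and -0.01 with the trend removed. Mxd1 was at 26.7, 24.8 and 24.9 CPM, at -0.0199 ± 0.0678 (SE, adjusted p = 0.833), and Mxi1 at 56.7, 52.1 and 53.8 CPM, at 0.0118 ± 0.0460 (SE, adjusted p = 0.854). With the length trend removed Mxi1 passed, at 0.14 (adjusted p = 0.0349), and with library totals alone its value was -0.0189.

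**Figure D3:**
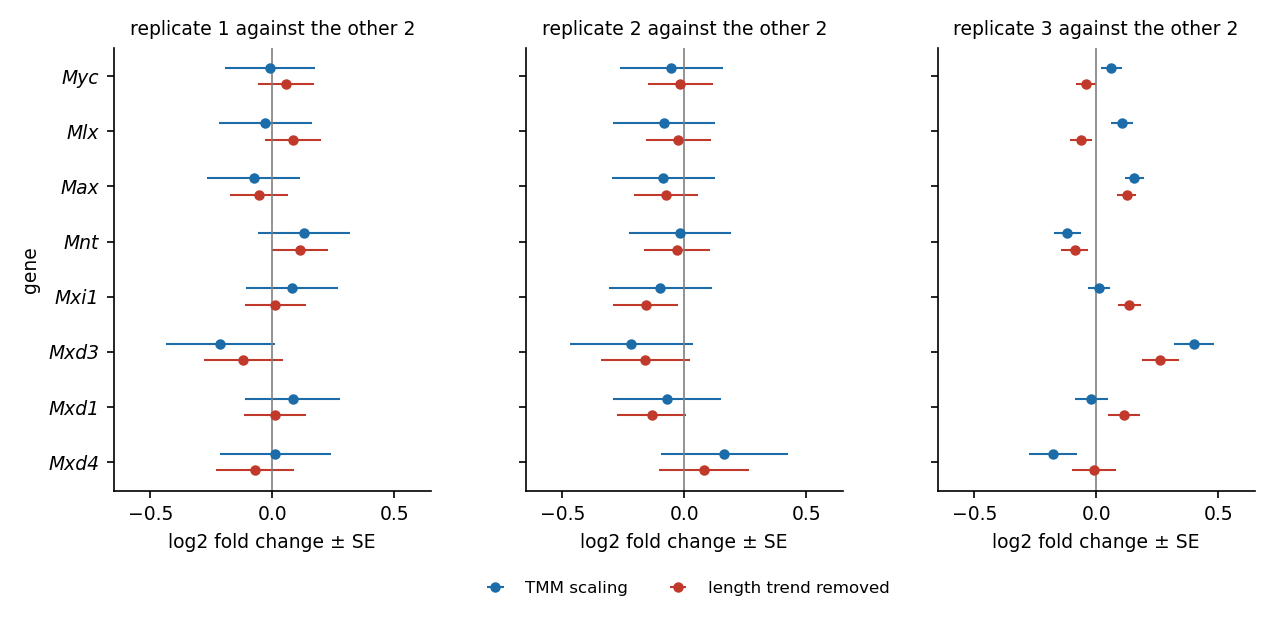
Log2 fold change ± SE of each network gene (y axis) in each library against the other 2, with TMM scaling (blue) and with the length trend removed (red). In replicate 3, Mxd3 is at 0.40 and stays above 0 at 0.26 once the trend is removed, while Mlx moves from 0.11 to -0.0636.

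**Figure D4:**
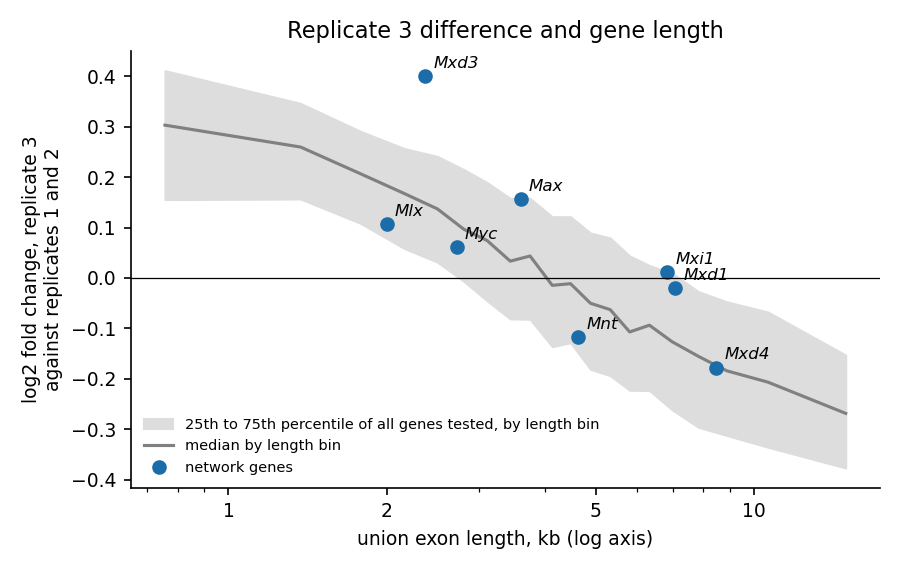
Log2 fold change of replicate 3 against replicates 1 and 2 by union exon length (log axis), with the median (line) and the 25th to 75th percentiles (grey) of all genes tested in 20 length bins, and the 8 network genes as points. Mxd3 lies at 0.40, where genes of its length had a median of 0.14, while Mxd4 at -0.18 lies on the median of its bin.

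The genes through which the antagonists act were all transcribed. Of 18 genes of the SIN3 and NCoR corepressor complexes, 18 reached 1 CPM in every library, with a median of 46.5 TPM against 22.9 TPM over all genes tested. Rbbp7, a histone-binding subunit, was at 504 ± 35.1 TPM, Sap30, a SIN3 subunit, at 232 ± 9.47 TPM and the deacetylase Hdac2 at 194 ± 3.24 TPM (SD, n = 3 for each). The scaffold genes Sin3a and Sin3b were named after their values were seen and are given as levels and fold changes only. Both are among the 18 genes. Sin3a was at 60.8, 59.4 and 42.5 TPM, lowest in replicate 3, and Sin3b at 57.0, 58.0 and 59.5 TPM. The log2 fold change in replicate 3 was -0.36 for Sin3a and 0.19 for Sin3b, or -0.30 and 0.33 with the length trend removed. Of the 18 genes, 8 were higher and 6 lower in replicate 3, or 8 and 2 with the length trend removed. The share of all genes called in replicate 3 was 24.8% higher and 26.8% lower, or 16.3% and 16% with the length trend removed, and these shares are the background for each list that follows.

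MYC cofactors were likewise present, with 19 of 19 genes at 1 CPM or above in every library and a median of 37.1 TPM. Ruvbl2 and Ruvbl1, ATPases of chromatin complexes that MYC recruits, were at 213 ± 3.44 and 171 ± 6.34 TPM, and Wdr5, a subunit of histone methyltransferase complexes that binds MYC, at 110 ± 8.17 TPM (SD, n = 3 for each). Among the 19 cofactors, replicate 3 had 4 higher and 8 lower, against 24.8% and 26.8% of all genes, or 2 and 6 with the length trend removed, against 16.3% and 16%. Of 22 genes for the stability of MYC protein, 22 reached 1 CPM, with a median of 60.3 TPM. Pim1, a kinase that stabilises MYC, was at 777 ± 25.4 TPM, above Myc itself in each library. The gene listed as C330027C09Rik, which encodes CIP2A, an inhibitor of the phosphatase that destabilises MYC, was at 181 ± 21.2 TPM, and the mitotic kinase Plk1 at 161 ± 8.97 TPM (SD, n = 3 for each). Among these 22 genes, replicate 3 had 4 higher and 12 lower, or 2 and 4 once the trend was removed, against the same shares of all genes.

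Of 15 regulators of Myc transcription and translation, 14 reached 1 CPM, with a median of 84.7 TPM. Nme2 was at 2028 ± 197 TPM, Cnbp, a nucleic acid binding protein, at 1632 ± 29.2 TPM and Irf4, which activates Myc in myeloma cells, at 626 ± 54.6 TPM (SD, n = 3 for each). Of 2 genes named after their values were seen, Pvt1, the noncoding neighbour of Myc, was at 9.76, 9.36 and 9.56 TPM, and Igf2bp1, which encodes a protein that stabilises Myc mRNA, had 3, 1 and 1 counts. Among the 14 regulators tested, replicate 3 had 3 higher and 4 lower, against 24.8% and 26.8% of all genes, or 5 and 3 with the length trend removed, against 16.3% and 16%.

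Among the pathway lists, textbook MYC-activated genes had the highest median level. All 40 reached 1 CPM in every library, and their median of 228 TPM compares with 22.9 TPM over all genes tested. Npm1, a nucleolar protein of ribosome assembly, was at 3587 ± 17.3 TPM, Pa2g4, a growth-related RNA-binding protein, at 1604 ± 62.1 TPM and Ncl, nucleolin, at 1476 ± 88.2 TPM (SD, n = 3 for each). In replicate 3, 12 were higher and 11 lower, with a median log2 fold change of 0.02, or 10 and 10 with the length trend removed, where 24.8% and 26.8%, or 16.3% and 16%, of all genes were called. Of 15 genes that MYC is known to repress, 7 reached 1 CPM, and the list median was 0.405 TPM. Those 7 lay between 11.9 and 234 TPM, so the low median reflects the genes under 1 CPM. List medians take in genes that failed the low-count filter, which the 22.9 TPM over all genes tested does not. Over all genes with a count and a length the median was 7.72 TPM. Cdkn1a, which encodes p21, a brake on the cell cycle, was at 234 ± 2.97 TPM, Cdkn1b, which encodes p27, at 92.5 ± 5.90 TPM and Cdkn2c at 89.1 ± 1.53 TPM (SD, n = 3 for each), whereas Gas1 had 0 counts in every library. In replicate 3, 4 of the 7 tested genes of this list were higher and none lower, or 3 and none with the length trend removed, beside the same shares of all genes. Such lists were compiled in other cells, and many activated genes are highly transcribed in any dividing cell.

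Of 3 genes that Mondo and MLX dimers drive, Txnip, an inhibitor of thioredoxin and glucose uptake, was at 441, 437 and 388 TPM and the transcription factor gene Klf10 at 20.6, 20.5 and 19.3 TPM, while Arrdc4, the arrestin relative of Txnip, had 1 count in replicate 1 and none elsewhere. Neither of the tested genes, Txnip and Klf10, passed in replicate 3. With the length trend removed Txnip was lower there, at -0.11 on the log2 scale (adjusted p = 0.0385). Other factors of the basic helix-loop-helix class bind E-boxes too, and of 12 such genes 9 reached 1 CPM in every library, with a median of 20.8 TPM. Bhlhe41, a repressor of the circadian clock, was at 127 ± 4.01 TPM, Srebf2, the regulator of sterol synthesis, at 57.1 ± 9.91 TPM and Usf2 at 51.6 ± 0.933 TPM (SD, n = 3 for each). Mitf and Bhlhe40 had no count in any library. In replicate 3, 3 of the 9 tested E-box factors were higher and 2 lower, against 24.8% and 26.8% of all genes, or 3 and 1 with the length trend removed, against 16.3% and 16%.

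**Figure D5:**
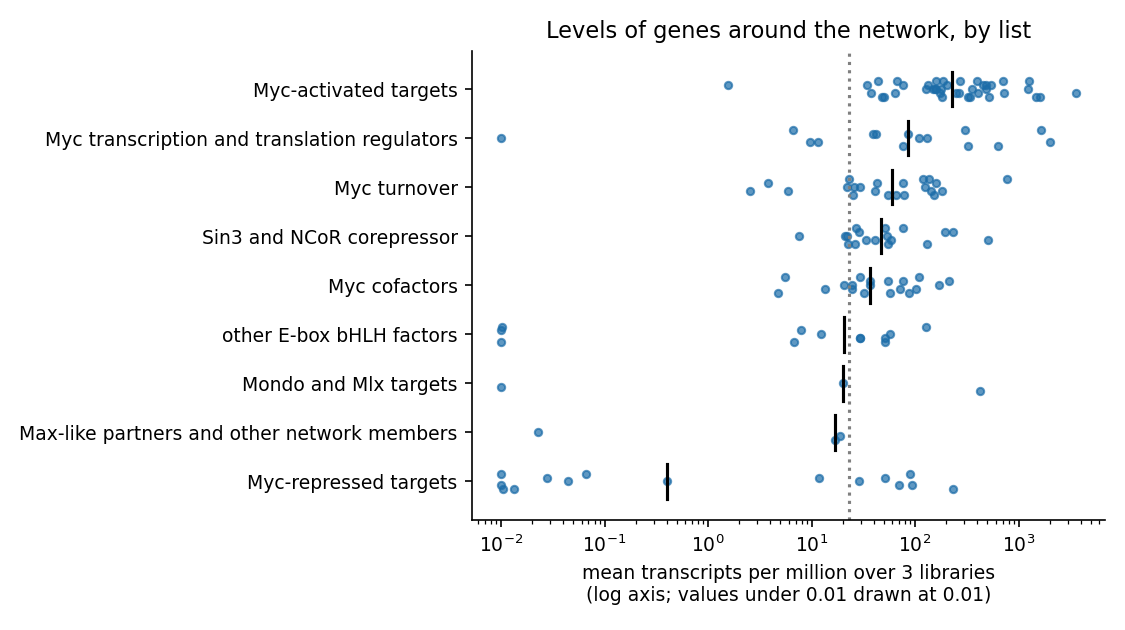
Mean TPM over 3 libraries (log axis) of the genes in each list around the network, 1 point per gene, with the list median (bar) and the median of all genes tested (dotted line). MYC-activated genes have a median of 228 TPM and MYC-repressed genes one of 0.405 TPM. The 7 repressed genes that reached 1 CPM lie between 11.9 and 234 TPM. List medians take in genes that failed the low-count filter, and the dotted line does not.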

How the data were processed

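The authors deposited raw counts per gene symbol, 1 table per library. Per the submitters' processing notes, reads were processed with bcl2fastq, cutadapt 4.2 and STAR, with mm10. For the counting, the program, annotation and strand setting were not given in the sources used here. Lengths and positions came from GENCODE M21 (GRCm38). There 23688 symbols were found, 466 more by an older name, and 313 were not found. The main test was edgeR 4.0.16 (R 4.3.3) on TMM-scaled counts of the 11308 genes that filterByExpr retained, at an adjusted p of 0.05. It was also run on simulated data. Genes there varied less than the 9.39% estimated from the 3 libraries, so that run gives no error rate for these data. The length trend was a loess fit with span 0.3, used as an offset. Alternatives were RLE or no further scaling, no low-count filter, DESeq2 1.42.0, other lengths and leaving out each replicate. A count of 0 allows 3 counts, or 0.0482, 0.0656 and 0.0505 CPM in replicates 1, 2 and 3. PCR copies are not independent molecules, and such limits cover only the counting error. Named genes are the members, the genes of the ratios, the 3 highest of each list with up to 3 at 0, and the 3 nearest to Myc. Sin3a, Sin3b, Pvt1, Igf2bp1, the genes with overlapping exons and the single markers fall outside this rule and were named after their values were seen. Members and lists were chosen with earlier results of these data known. Python 3.11.15 and SciPy 1.17.1 did the rest.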

Additional observations from a re-analysis of the deposited data

How the results depend on the processing

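No paired analysis was possible because the 3 libraries form 1 group. With 1 residual degree of freedom, single fold changes are weakly supported. RLE scaling turned no member's direction and changed no call. All 8 member levels in CPM moved by less than 1 SD with TMM or DESeq2 size factors. Over all genes, 2803 were higher and 3031 lower in replicate 3, against 1351 and 1811 by DESeq2 and 1840 and 1813 with the length trend removed. In replicate 1, 3 were higher and 6 lower, against 0 and 1 by DESeq2 and 1 and 3 with the trend removed. In replicate 2, 3 and 3 became 0 and 1, and 1 and 1. Over the pathway lists together, 38 genes were higher and 45 lower in replicate 3, against 23 and 35 by DESeq2 and 33 and 28 with the trend removed, which are counts and need not be the same genes. The shares of all genes were 24.8% higher and 26.8% lower, or 16.3% and 16% with the trend removed. By DESeq2 they were 14.8% and 19.9% of 9115 genes. Numbers of genes tested are given above for each list, and the pooled counts were not tested against these shares. The log2 ratio of Mlx over Max turned from 0.0467 to -0.82 with the longest transcript and -0.80 without lengths. The ratio of summed antagonists over Max turned from -0.0215 to 0.55 without lengths, and lay between -0.0608 and 0.0196 with 1 replicate left out, the highest without replicate 3. In replicate 3, removing the length trend turned Myc to -0.0421, Mxd1 to 0.11 and Mlx to -0.0636, and library totals turned Mxi1 to -0.0189. In replicate 1, where no member passed, Myc turned to 0.0566 and Mxd4 to -0.0694 and Mlx to 0.0846 with the trend removed, and Myc to 0.0080 with library totals. The cause was not tested. Leaving out a replicate leaves 1 library against 1 in the tests between libraries, with no test.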
